A study of Arabidopsis thaliana with 15 samples.

Results

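The 6 genes described here are AT3G05730, AT4G02940, AT1G04800, AT1G33811, AT3G62820 and AT1G68500 of Arabidopsis thaliana. They were selected on their measured log2 signal, which was higher late in the stomatal lineage than early in it, and because the annotation lists them by locus code with no symbol. Each has 1 probe set on the ATH1 array, and all 6 probe sets are present in the table. They are 6 of 11147 genes listed by locus code alone and of 12669 genes with a probe set listed to 1 gene. The tables used here assign none of the 6 a function, so no role is given to any of them.

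Expression was measured on 15 ATH1 arrays of cells sorted from protoplasts of the aerial parts of 14-day-old Col seedlings, with 3 arrays for each of 5 populations. The epidermis was sorted with ML1p::YFP-RCI2A, early precursors with SPCHp::SPCH-YFP (young meristemoids and their mother cells), and middle precursors (late meristemoids and young guard mother cells) with MUTEp::nucGFP. Late precursors (young guard cells and mature guard mother cells) were sorted with FAMAp::GFP-FAMA, and mature guard cells with the enhancer trap E1728::GFP. Every population is therefore its own reporter line, and line and stage cannot be told apart. The SPCH-YFP and GFP-FAMA reporters are fusions to the lineage regulator itself, and all 5 populations share the Col background, seedling age and protoplasting.

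Guard cells flank the stomatal pore and open or close it by changes in turgor. They arise from a short epidermal lineage in which the basic helix-loop-helix proteins SPCH, MUTE and FAMA act in turn, at entry, at the passage to the guard mother cell, and at the last division. ML1, whose promoter drives the epidermal reporter, is active across the epidermal layer.

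Values are log2 expression, and an array's median probe set lay between 2.52 and 2.68. Group means no higher than 2.68 were read as near the background, and folds against them are lower bounds, written as "at least". Early precursors were the most variable population, with a residual standard deviation (SD) over all probe sets of 0.658, against 0.282 to 0.383 in the others. FAMA (listed as FMA) stood at 3.19 ± 0.18 in the epidermis, 2.29 ± 0.38 in early, 6.64 ± 0.25 in middle and 10.11 ± 0.26 in late precursors, and at 7.23 ± 0.30 for mature guard cells (SD, n = 3). The late sort carries FAMA in its reporter and the early sort SPCH, so the high FAMA there, and the 9.11 ± 0.10 of SPCH in early precursors (SD, n = 3), are no check of those sorts. MUTE averaged 2.37 in middle precursors and was near the background in every population, as was AT4G14480, another gene of the guard cell marker list. None of the 7 epidermis markers and none of the 6 vascular markers looked for had a probe set listed to 1 gene, so those cell types were not checked. Nothing in the labels says whether replicates came from separate cultures, so p-values measure only the spread between these samples. In a sorted population, fewer cells that express a gene and less RNA per cell cannot be told apart.

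AT3G05730 was highest in mature guard cells and lowest in early precursors. The epidermis arrays stood at 8.45, 7.84 and 8.40 and the early precursor arrays at 4.58, 2.46 and 3.27. Middle precursors were at 5.67, 5.13 and 6.39, late precursors at 7.73, 8.87 and 9.09, and mature guard cells at 11.25, 9.60 and 9.78. All arrays of each lineage stage lay above all arrays of the stage before it, while the epidermis arrays overlapped with those of late precursors. On the log2 scale, mature guard cells exceeded early precursors by 6.77 (SE 0.57), a 109-fold difference and the greatest of all 20956 probe sets in that comparison. The epidermis mean of 8.23 ± 0.34 (SD, n = 3) stood above those of early and middle precursors, and which epidermal cells gave that signal was not tested.

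AT4G02940 was highest in late precursors. Its epidermis arrays stood at 6.72, 7.09 and 5.95, early precursors at 2.40, 3.85 and 3.44, and middle precursors at 6.90, 7.08 and 6.71. Late precursors were at 9.31, 9.71 and 9.84 and mature guard cells at 9.09, 8.85 and 8.06. The late arrays lay above all mature arrays, these lay above all middle arrays, and the epidermis and middle arrays overlapped. Late precursors exceeded early precursors by 6.39 on the log2 scale (SE 0.38), an 83.9-fold difference that ranked 2 among all probe sets in that comparison.

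AT1G04800 had a like order with a higher epidermal spread. Its epidermis arrays stood at 6.18, 6.84 and 8.11, its early precursor arrays stood at 5.85, 5.33 and 5.55, and its middle precursor arrays at 7.58, 8.27 and 7.70. Late precursors were at 9.73, 10.95 and 11.01, and mature guard cells at 9.57, 10.23 and 9.85. The late and mature arrays overlapped, as did those of the epidermis and middle precursors, and both of the upper groups lay above all other arrays. Late precursors were 31.6-fold above early precursors, 4.98 on the log2 scale (SE 0.45).

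AT1G33811 was near the background in early precursors, at 2.81, 2.53 and 1.83, and low in the epidermis, at 3.62, 2.64 and 3.23. Middle precursors stood at 3.94, 5.36 and 4.88, late precursors at 6.29, 7.71 and 7.72, and mature guard cells at 7.08, 7.14 and 6.94. The epidermis and early arrays overlapped, the middle arrays stood apart above them, and the late and mature arrays overlapped at the top. The difference between late and early precursors was at least 4.56 on the log2 scale, or at least 23.7-fold.

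AT3G62820 was near the background in the epidermis (1.88, 2.15 and 2.39) and in early precursors (2.91, 2.22 and 2.00), and just above it in middle precursors (2.95, 2.64 and 2.90). Late precursors stood at 4.93, 5.79 and 5.60 and mature guard cells at 5.11, 4.34 and 3.40. Signal clearly above the background was thus measured in the late and mature sorts, whose arrays overlapped. Late precursors were at least 6.79-fold above early precursors. The 3 mature arrays spread over more than 1 log2 unit (SD 0.86), more widely than in any other population for this gene.

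AT1G68500 departed from the other genes in its order of stages. Its epidermis arrays stood at 5.11, 6.03 and 5.99 and its early precursor arrays at 4.52, 4.53 and 5.70, which overlapped. Middle precursors were at 9.29, 9.60 and 9.54, late precursors at 8.87, 8.13 and 8.15, and mature guard cells at 8.72, 8.73 and 8.64. All middle arrays lay above all late and mature arrays, and the late and mature arrays overlapped. Middle precursors were 23.6-fold above early precursors, 4.56 on the log2 scale (SE 0.33), which ranked 2 among all probe sets in that comparison.

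**Figure D1:**
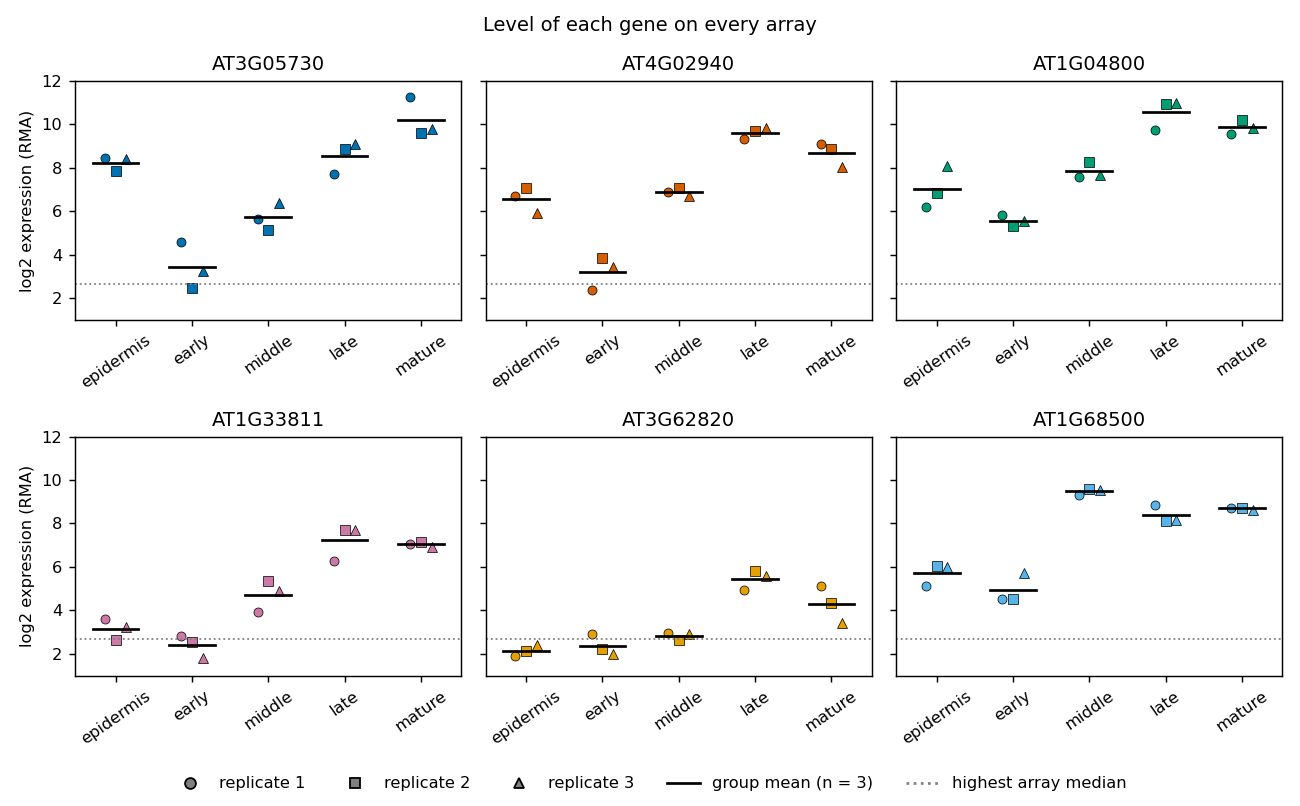
Log2 expression (RMA) of each of the 6 genes on all 15 arrays, by population; symbols are replicates, black lines are group means (n = 3) and the dotted line is the highest array median, 2.68. AT1G68500 is highest in middle precursors, AT3G05730 in mature guard cells, and the other 4 in late precursors.

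The steps between stages were then set side by side to show where along the lineage each gene gained its signal. The genes were chosen for these differences, so they are given without a test and support nothing beyond themselves. Between early and middle precursors the log2 difference was 4.56 for AT1G68500, 3.67 (SE 0.38) for AT4G02940, 2.30 (SE 0.57) for AT3G05730, 2.27 (SE 0.45) for AT1G04800 and at least 2.05 for AT1G33811. AT3G62820 differed by at least 0.15, with an early mean near the background and arrays that overlapped. All middle arrays lay above all early arrays for 5 of the 6 genes, against 12.1% of all probe sets.

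From middle to late precursors the 5 genes other than AT1G68500 gained about the same amount. Their log2 differences were 2.83 (SE 0.57) for AT3G05730, 2.72 (SE 0.38) for AT4G02940, 2.71 (SE 0.45) for AT1G04800, 2.61 (SE 0.38) for AT3G62820 and 2.51 (SE 0.44) for AT1G33811. The range of these 5 values is smaller than any of their standard errors. The AT3G62820 middle mean of 2.83 lay just above the background limit of 2.68, so its difference is limited by the signal there. AT1G68500 instead was lower in late than in middle precursors by 1.09 (log2 difference -1.09, SE 0.33). In this step all late arrays lay above all middle arrays for 5 genes (12.9% of all probe sets) and below them for 1 gene (14%).

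Between late precursors and mature guard cells the genes went different ways. AT3G05730 was higher in mature guard cells by 1.65 (SE 0.57), with all 3 arrays above the late arrays, as in 8.03% of all probe sets. AT4G02940 differed by -0.95 (SE 0.38) and all its mature arrays lay below the late arrays, as in 8.02% of all probe sets. The arrays of the other 4 genes overlapped between these stages. Their log2 differences were -1.15 (SE 0.38) for AT3G62820, -0.68 (SE 0.45) for AT1G04800, -0.19 (SE 0.44) for AT1G33811 and 0.31 (SE 0.33) for AT1G68500.

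**Figure D2:**
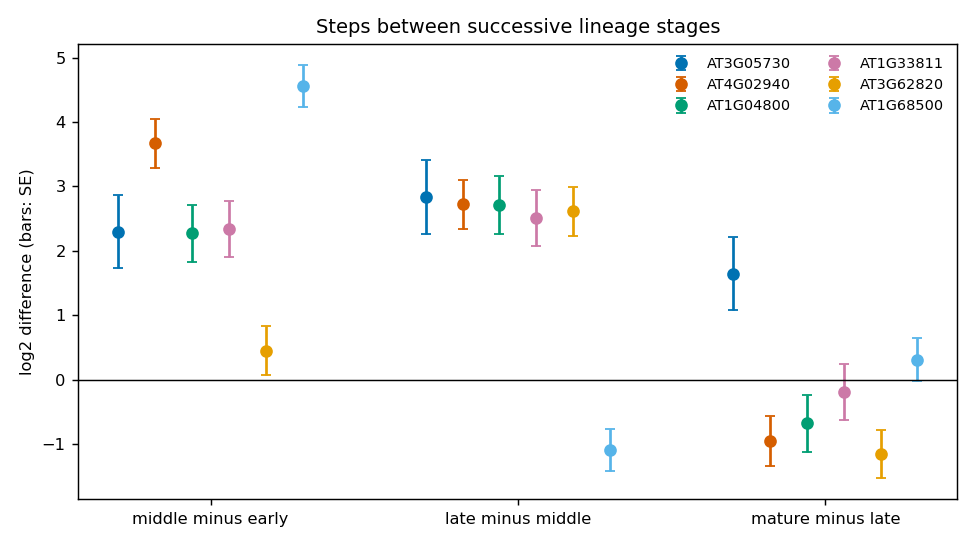
Log2 differences between successive lineage stages for the 6 genes, with standard errors from the model as bars. From middle to late precursors 5 genes lie between 2.51 and 2.83 while AT1G68500 lies at -1.09, and the genes part again between late precursors and mature guard cells.

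From end to end, the mature arrays lay above all early arrays for all 6 genes (13.5% of all probe sets), and so did the late arrays (14.9%). The genes were chosen for this increase, so nothing is read from these counts. The increase was not stepwise for AT1G68500, and mature guard cells had lower means than late precursors for 4 genes.

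Late precursor replicate 1 stood apart from its fellow arrays in all 6 genes. Against the mean of replicates 2 and 3 it was lower by 1.25 for AT3G05730 (difference -1.25), -1.25 for AT1G04800, -1.43 for AT1G33811, -0.77 for AT3G62820 and -0.47 for AT4G02940, all on the log2 scale. For AT1G68500 it was higher by 0.72. In each gene the replicate thus lay on the side of the middle precursor mean. Replicates 2 and 3 were also the closest pair of arrays over all probe sets (Pearson's r = 0.994, taken across genes, which do not count as independent replicates). The spread of the 6 genes about their group means was 0.43 to 0.77 (residual SD), above the median of 0.29 over all probe sets. That median was not matched for level. A mean over all arrays above 2.68 was found for 9960 of 20956 probe sets, the 6 genes among them.

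Each stage was compared with the epidermis to ask how a stage differs from the epidermis as a whole. The rule that chose the genes does not name this comparison, and it was tested with limma over all 20956 probe sets, with p-values adjusted by Benjamini-Hochberg. The stage arrays are nevertheless those by which the genes were chosen, so these p-values set a difference against the replicate spread and are not independent support.

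In early precursors AT3G05730 and AT4G02940 fell against the epidermis, and the other 4 genes did not pass. AT3G05730 differed by -4.80 on the log2 scale (SE 0.57, 27.8-fold lower, limma adjusted p = 0.000286), the greatest fall of all probe sets. AT4G02940 differed by -3.35 (SE 0.38, 10.2-fold lower, limma adjusted p = 0.0002). These 2 of 6 compare with 5.51% of all probe sets called lower. All early arrays lay below all epidermis arrays for 3 of the 6 genes, against 9.93% of all probe sets. AT1G04800 differed by -1.46 (SE 0.45) with all its early arrays below the epidermis arrays, and its limma adjusted p of 0.0621 missed the threshold of 0.05. It passed without epidermis replicate 1 (log2 difference -1.90, limma adjusted p = 0.0234) or late precursor replicate 1 (0.0417). AT1G68500 differed by -0.79 (SE 0.33, limma adjusted p = 0.167) and passed without early precursor replicate 3 (log2 difference -1.19, limma adjusted p = 0.0164). AT1G33811 and AT3G62820 were low in both populations, with limma adjusted p of 0.321 and 0.761.

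In middle precursors AT1G68500 was the 1 gene that rose against the epidermis, against 3.24% of all probe sets called higher. It was 13.6-fold higher, by 3.77 on the log2 scale (SE 0.33, limma adjusted p = 8.61e-05), and ranked 4 among all probe sets. AT3G05730 was the 1 gene that fell, by 2.50 on the log2 scale (SE 0.57, 5.66-fold lower, limma adjusted p = 0.0242), against 2.29% of all probe sets called lower. The call for AT3G05730 was lost without epidermis replicate 1 (limma adjusted p = 0.0717) or 3 (0.0815) and without middle precursor replicate 1 (0.0802) or 2 (0.0925). AT1G33811 stood 2.96-fold above the epidermis with all arrays apart (limma adjusted p = 0.0575). It passed without early precursor replicate 3 (limma adjusted p = 0.045), late precursor replicate 1 (0.0283) or middle precursor replicate 1 (0.0393). All middle arrays lay above the epidermis arrays for 3 of the 6 genes, against 14.6% of all probe sets. AT4G02940, AT1G04800 and AT3G62820 had log2 differences of 0.31, 0.81 and at least 0.15, and limma adjusted p of 0.69, 0.339 and 0.335.

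In late precursors 5 of the 6 genes rose against the epidermis, compared with 4.75% of all probe sets called higher. AT1G33811 was 16.9-fold higher, by 4.08 on the log2 scale (SE 0.44, limma adjusted p = 0.000244), and ranked 5 among all probe sets. AT1G04800 was 11.4-fold higher (log2 difference 3.52, SE 0.45, limma adjusted p = 0.000626) and AT4G02940 8.21-fold higher (3.04, SE 0.38, limma adjusted p = 0.000612). AT3G62820 was at least 6.79-fold higher (limma adjusted p = 0.00034) and AT1G68500 6.37-fold higher (2.67, SE 0.33, limma adjusted p = 0.000531). All late arrays lay above the epidermis arrays for the same 5 genes, against 15.6% of all probe sets. AT3G05730 differed by 0.33, with a 95% interval from -0.91 to 1.57, its arrays overlapped with those of the epidermis, and it did not pass (limma adjusted p = 0.773).

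In mature guard cells the same 5 genes rose, against 2.29% of all probe sets called higher. AT1G33811 was 14.8-fold higher (log2 difference 3.89, SE 0.44, limma adjusted p = 0.000597), AT1G68500 7.91-fold (2.98, SE 0.33, limma adjusted p = 0.000538) and AT1G04800 7.15-fold (2.84, SE 0.45, limma adjusted p = 0.00476). AT4G02940 was 4.24-fold higher (2.08, SE 0.38, limma adjusted p = 0.0112). Leaving out epidermis replicate 3 (limma adjusted p = 0.0538) or mature guard cell replicate 1 (0.0567) ended the call for AT4G02940. AT3G62820 was at least 3.05-fold higher (limma adjusted p = 0.00893), and 0.0526 with only these 2 populations in the fit. AT3G05730 stood 3.94-fold above the epidermis, 1.98 on the log2 scale (SE 0.57), with all 3 arrays apart, and missed the threshold (limma adjusted p = 0.0766). It passed without early precursor replicate 1 (limma adjusted p = 0.0393) or 2 (0.0446), and with the early arrays left out altogether (0.0287). All mature arrays lay above all epidermis arrays for the 6 genes, as in 12.7% of all probe sets.

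**Figure D3:**
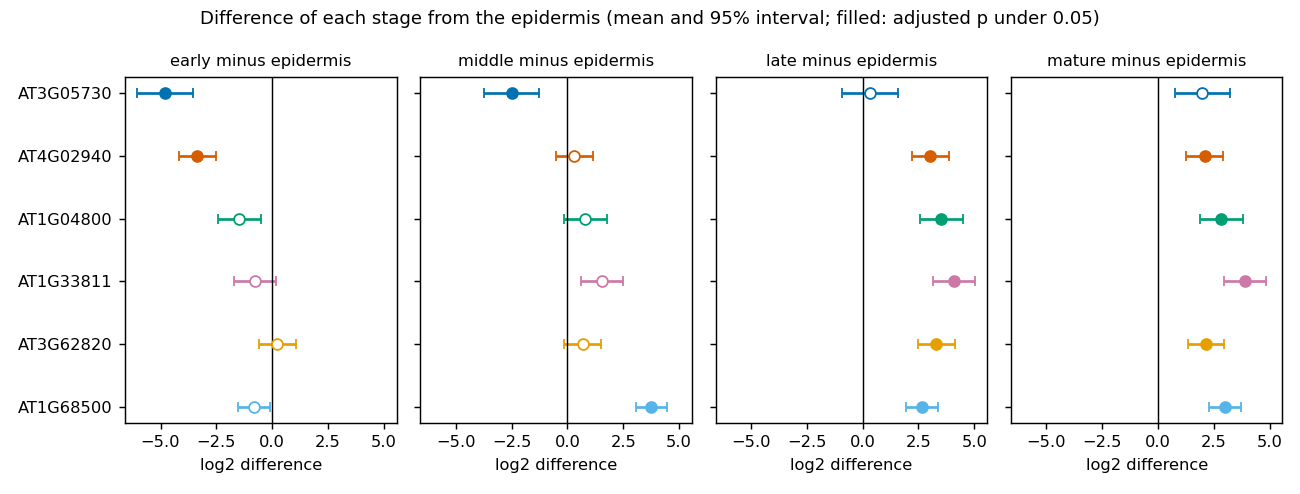
Log2 difference of each lineage stage from the epidermis for the 6 genes, with 95% intervals from the model; filled points passed the limma test at an adjusted p of 0.05. Early and middle precursors have 2 filled points each, and late precursors and mature guard cells 5 each.

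Markers of other cells differed between the same groups. The summed log2 level of the 2 measured division markers, AUR1 and AUR2 (Aurora kinases of the mitotic spindle), of 10 looked for, was 8.84 to 9.85 in early and 7.43 to 8.69 in middle precursors. It was 5.20 to 5.57 in the epidermis, 5.40 to 5.89 in late precursors and 4.55 to 5.61 for mature guard cells. The 3 measured photosynthesis markers of 18, RCA, PSAE-1 and SBPASE, summed to 28.0 to 30.4 in the epidermis, 16.8 to 25.6 in early precursors, 22.6 to 22.8 in middle precursors, 20.6 to 22.8 in late precursors and 22.1 to 24.8 for mature guard cells. The 6 measured guard cell and lineage markers of 16 summed to 21.0 to 21.5 in the epidermis and 22.2 to 28.4 in early precursors. They summed to 25.1 to 28.7 in middle precursors, 33.8 to 37.1 in late precursors and 31.8 to 32.6 for mature guard cells. These sums include SPCH and FAMA, which the early and late sorts carry in their reporters, so the sums are no check there. SPCH averaged 9.11 in early precursors and 2.27 in the epidermis. In early replicates 1 to 3 AT1G22690 stood at 6.99, 2.73 and 2.28, and CHX20 at 6.46, 4.88 and 4.79. Their epidermis arrays lay between 5.48 and 6.31 and between 6.41 and 6.68. Only early replicates 2 and 3 lay below these ranges. TRY, the 1 measured trichome marker of 4, stayed at or below 2.67 on every array outside early precursors, where it reached 6.61 on 1 array. STZ, the 1 measured wound marker of 6, lay between 7.74 and 9.17 on all arrays. The part of these cells in the differences of the 6 genes was not tested.

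Of 15 dehydration and abscisic acid response genes looked for, COR47, LTI30 and COR15A, known as genes induced by cold and drought, were measured. All 3 fell in early precursors against the epidermis, by 1.67 (SE 0.34), 2.22 (SE 0.48) and 1.60 (SE 0.44) on the log2 scale (limma adjusted p = 0.00944, 0.0119 and 0.0403), against 5.51% of all probe sets called lower. Without epidermis replicate 2 that count was 1, and it was 0 with only these populations in the fit or with group-wise weights. In late precursors COR15A fell against the epidermis (log2 difference -1.74, SE 0.44, limma adjusted p = 0.0292; 3.26% of all probe sets were called lower), and 0 of the 3 passed in middle precursors or mature guard cells. In middle precursors 1 gene was called lower without epidermis replicate 3, and 1 higher with array weights, with group-wise weights or without the early arrays. The COR15A call was lost without epidermis replicate 1 or 2, without late precursor replicate 2 or 3, with only these populations in the fit, and with late replicates 2 and 3 averaged. COR47 and LTI30, a dehydrin gene, rose from early precursors to mature guard cells by 1.80 (SE 0.34) and 3.45 (SE 0.48), with limma adjusted p of 0.00432 and 0.000497, against 9.71% of all probe sets called higher. The count was 1 with only these populations in the fit. Of 7 genes with defensin in their reference names, 3 were measured (PDF1.2, LCR66 and LCR67), of which LCR66 and LCR67 were near the background in all 5 populations. PDF1.2, a plant defensin gene, fell from early to middle precursors (log2 difference -0.99, SE 0.20, limma adjusted p = 0.0124), against 4.03% of all probe sets called lower. It also fell from early to late precursors (-0.99, limma adjusted p = 0.0056; 9.42% called lower), and was at least 2.04-fold lower in mature guard cells than in early precursors (limma adjusted p = 0.00411; 10.4% called lower). The call between early and middle precursors was lost without middle precursor replicate 3, with only these populations in the fit and with group-wise weights. Against the epidermis PDF1.2 passed in no stage (limma adjusted p from 0.113 to 0.2), but 1 defensin gene was called lower in mature guard cells without epidermis replicate 2 and in late precursors with array weights.

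The 6 genes were also compared with each other over the 15 arrays. The closest pair was AT1G04800 and AT1G33811 (Pearson's r = 0.953, Spearman's rho = 0.95). Only 6 probe sets, with AT1G04800's own counted among them, followed AT1G04800 more closely than AT1G33811 did. AT1G04800 and AT4G02940 had r = 0.904, AT1G33811 and AT3G62820 r = 0.883. The least alike were AT3G05730 and AT1G68500 (r = 0.421, rho = 0.218). Within groups the 15 pairs ran from r = -0.606 to 0.717. The values over all arrays follow mostly from the 5 group means, which the choice of the genes used, and they are given as a description.

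Among 1537 probe sets listed to 1 gene with a symbol, those with the most similar profile were named by rank of Pearson's r over the 15 arrays. CHX20, which encodes an exchanger of cations and protons in guard cell membranes, was the closest to both AT1G04800 (r = 0.95, rho = 0.939) and AT1G33811 (r = 0.96, rho = 0.9). APL4, a large subunit of ADP-glucose pyrophosphorylase in starch synthesis, and SGP1, a small GTP-binding protein, came next for AT1G04800 (r = 0.934 and 0.92). The APL4 means were near the background in all 5 populations, from 1.78 to 2.65, so its r describes a dim probe set. For AT1G33811 AZG1, a purine transporter, and SBTI1.1, a subtilisin-like protease, came next (r = 0.937 and 0.92).

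AT4G02940 was followed most closely by VPS20.1 (r = 0.968), an ESCRT-III component of endosomal sorting, UGT73B4 (r = 0.967), a UDP-glycosyltransferase, and WRKY6 (r = 0.965), a transcription factor. WRKY6 stood at 6.45 ± 0.43 in the epidermis, 4.72 ± 0.45 in early, 6.49 ± 0.39 in middle and 8.11 ± 0.10 in late precursors, and at 7.44 ± 0.45 for mature guard cells (SD, n = 3). It thus had the same order of lineage stages as AT4G02940. For AT3G62820 the closest was ATG8B (r = 0.955), a ubiquitin-like protein of autophagosomes, followed by ASPGB1 and MGL (both r = 0.923), enzymes of asparagine breakdown and of methionine breakdown. MGL was near the background in the epidermis, early and middle precursors, at 2.45 ± 0.02, 2.40 ± 0.56 and 2.42 ± 0.08, and averaged 5.16 ± 0.47 in late precursors, against 3.65 ± 0.22 in mature guard cells (SD, n = 3).

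The other 2 genes had less close followers. AT3G05730 was nearest to MT1C, a metallothionein (r = 0.9), HL (r = 0.899) and GAMMA-VPE, a vacuolar processing protease (r = 0.887). MT1C stood at 7.58 ± 0.96 in the epidermis, 5.43 ± 1.09 in early, 7.27 ± 0.50 in middle and 8.70 ± 0.43 in late precursors, and at 9.45 ± 1.00 for mature guard cells (SD, n = 3), the same order as AT3G05730. AT1G68500 was nearest to the protein kinase gene APK1A (r = 0.908), the aspartic protease gene APA1 (r = 0.891) and the β-glucosidase gene BGLU25 (r = 0.889). BGLU25 was likewise highest in middle precursors, at 8.09 ± 0.23, against 4.65 ± 1.21 in early and 7.06 ± 0.16 in late precursors, and 7.04 ± 0.57 for mature guard cells. Over the mean of the 6 standardised profiles the closest were SGP1 (r = 0.963), CHX20 (r = 0.953), AZG1 (r = 0.946), WRKY6 (r = 0.94) and HAT3.1, a homeodomain protein gene (r = 0.93).

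**Figure D4:**
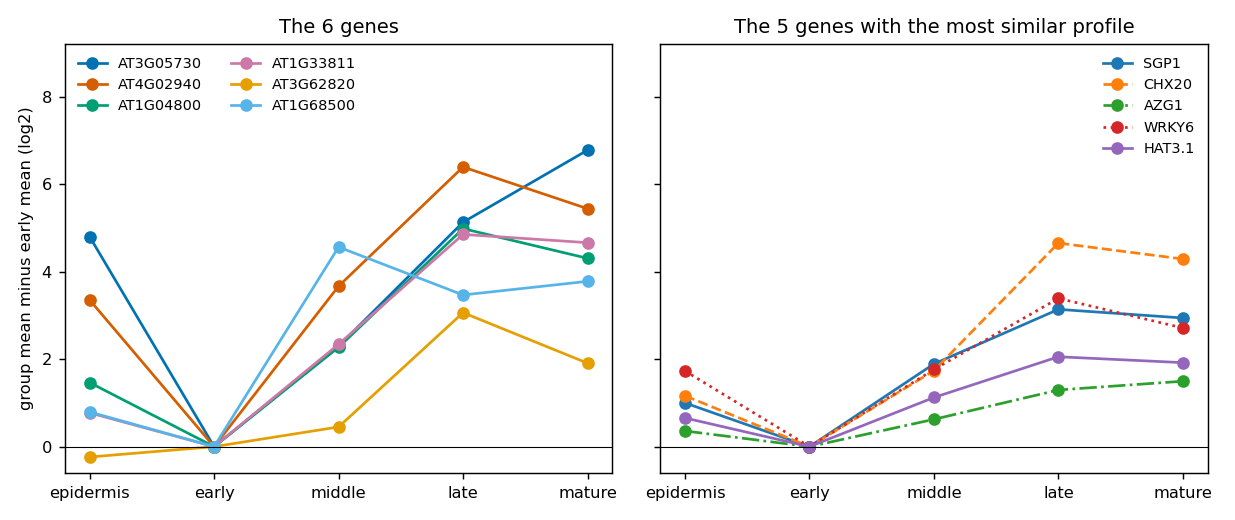
Group means relative to the early precursor mean (log2) for the 6 genes (left) and for the 5 genes with a symbol whose profile over the 15 arrays was most like their mean (right). CHX20, SGP1, WRKY6 and HAT3.1 are highest in late precursors, as 4 of the 6 genes are, and AZG1 in mature guard cells.

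The genes next to the 6 on their chromosomes were examined to see whether the pattern extended to them, a choice made after the values had been seen. The 3 protein-coding genes on each side make 36 genes, of which 18 have a probe set listed to 1 gene. Their fitted late minus early differences lay between -0.79 and 1.25 on the log2 scale with a median of -0.11, while the fitted values of the 6 genes lay between 3.06 and 6.39. Several of these rest on means near the background, and with such means set to the background limit the highest neighbour stood at 1.21 (AT3G62790) and the lowest of the 6 genes at 2.76 (AT3G62820). Of the 18, 2 rose and 0 fell by limma's adjusted p, against 20.2% of all probe sets called in either direction and 9.42% called lower. AT1G68490, directly beside AT1G68500, averaged 3.73 in late precursors and was near the background elsewhere, with means of 2.16 in the epidermis, 2.49 in early and 2.43 in middle precursors and 2.46 for mature guard cells. Its late level exceeded early precursors at least 2.08-fold (limma adjusted p = 0.000455), so this gene had its signal in a later stage than the peak of AT1G68500. AT1G68470, 3 places from AT1G68500, averaged 4.60 in middle precursors, where AT1G68500 peaked. It was near the background elsewhere, with means from 2.58 to 2.62, so its late minus early difference was only 0.04. In middle precursors it was at least 3.79-fold above the epidermis (limma adjusted p = 0.000281). It was the 1 neighbour of 18 called higher there, against 3.24% of all probe sets. That comparison was not repeated under other settings for the neighbours. AT1G04810, directly beside AT1G04800, averaged 3.21 in late precursors and 2.05, near the background, in early precursors (limma adjusted p = 0.03). The AT1G04810 call was lost without early precursor replicate 1 (limma adjusted p = 0.063) or 2 (0.0897), or late precursor replicate 1 (0.096) or 2 (0.0605). It was also lost with array weights (limma adjusted p = 0.119), with group-wise weights (0.105) and with only these populations in the fit (0.101). With late replicates 2 and 3 averaged its limma adjusted p was 0.0555. The count of neighbours that fell was 3 without early precursor replicate 3 and 1 without epidermis replicate 3. It was 2 with array weights, and 1 with the replicate block or with limma's trend and robust options. The count that rose was 1 without early precursor replicate 1 or late precursor replicate 1 or 2. It was also 1 with array weights, with group-wise weights, with only these populations in the fit and with late replicates 2 and 3 averaged. Without early precursor replicate 2 that count did not drop to 1, although the AT1G04810 call was lost. Without dim probe sets it was 0, because that filter removed both AT1G68490 and AT1G04810 before the fit, so neither was retested.

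**Figure D5:**
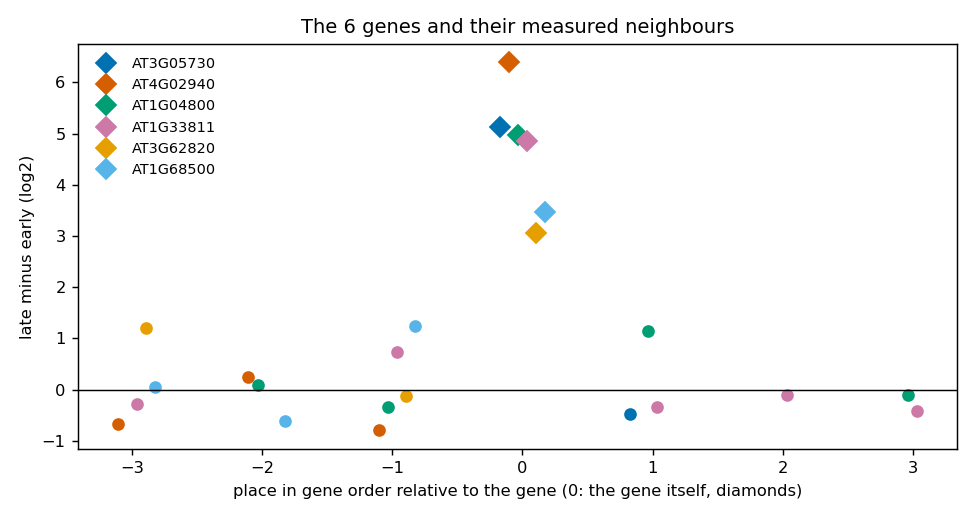
Fitted late minus early log2 difference of the 6 genes (diamonds, at place 0) and of their 18 measured neighbours (circles), by place in gene order on the chromosome; colours match each neighbour to its gene. The neighbours lie between -0.79 and 1.25, below all 6 genes.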

How the data were processed

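The authors deposited log2 values, a single one for each probe set on each array. The submitters' processing notes name RMA and affy, whose versions are not given in the sources used here, and neither is the genome build. The log2 base is inferred from RMA and the range, 1.11 to 13.35. Probe sets were named through the platform annotation and a RefSeq gene table (TAIR10.1): 12783 of 20956 are listed to 1 gene, 37 to several and 8136 to none. All 15 arrays entered 1 limma 3.58.1 model (R 4.3.3) with 1 mean per group and 10 residual degrees of freedom. Tests were two-sided moderated tests, adjusted by Benjamini-Hochberg within a comparison over all probe sets, at a threshold of 0.05, and the procedure was tested on simulated data. Likeness was computed in Python 3.11.15 with numpy 2.4.6, pandas 2.3.3 and scipy 1.17.1, with figures drawn in matplotlib 3.10.9.

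The 6 genes, the marker lists and the lists of dehydration and defensin genes were chosen with earlier results of these data known. Named genes are the 6, the 3 symbols most like each, the 5 most like their mean, and from each list up to 2 called genes per direction in mature guard cells against the epidermis or early precursors. The marker genes named, the sort reporters' genes, COR15A, LCR66 and LCR67 fall outside that rule. So do the neighbours AT1G68490, AT1G68470, AT1G04810 and AT3G62790. All were named after their values were seen. Family lists matched on the reference's gene names and synonyms (GDSL, pectin methylesterase inhibitor, glycine-rich protein, alkB) had 0 measured members. Replicate numbers are shared between groups, and of 30 pairs of same-numbered arrays 3 had deviations correlated above 0.1. These were epidermis with mature guard cells for replicates 2 and 3 (r = 0.138 and 0.168) and early with late precursors for replicate 3 (0.102). With so few, the numbers were not treated as pairs. The number of arrays limits the precision.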

Additional observations from a re-analysis of the deposited data

How the results depend on the processing

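The comparisons were repeated under 10 other settings and without each of the 15 arrays in turn, and no difference that passed the test reversed. Of those that did not pass, AT3G62820 in early precursors against the epidermis turned to -0.03 (log2) without early replicate 1, AT4G02940 in middle precursors to -0.01 without epidermis replicate 3, and AT1G33811 in mature guard cells against late precursors spanned -0.67 to 0.05. Under 3 settings (array weights, without dim probe sets, without the early arrays) the genes called higher in middle precursors against the epidermis numbered 2, not 1. Leaving out single arrays gave 1 to 2 genes called higher and 0 to 1 called lower in middle precursors, 2 to 3 lower and 0 higher in early precursors, 5 higher and 0 lower in late precursors, and 4 to 6 higher and 0 lower in mature guard cells. The replicate block was also fitted, although the main model did not treat replicate numbers as pairs. It gave 3 genes called lower in early precursors (AT1G04800 added, limma adjusted p = 0.0459), and 1 higher and 1 lower in middle precursors. In both late precursors and mature guard cells it gave 5 higher. The differences between lineage stages moved by more than the replicate spread in 7 cases, all under cyclic loess or quantile normalization and with the sign kept. Ranked by Spearman's rho, 0 to 2 of the 3 genes named as most like each gene were among its first 3 again. Ranked over the 5 group means, 0 to 1 were. Of the 5 genes named as most like the mean of the 6, 1 was among the first 5 again by Spearman's rho. Over the group means 2 of the 5 were. The cause was not tested. Differences near the background are limited by the signal there.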
